A study of Mus musculus with 6 samples.

Results

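The vehicle baseline consisted of 3 of the 6 RNA-seq libraries of the series, those made from ileal organoids that had received only DMSO, the solvent used as vehicle. The libraries were chosen by their treatment label, and no measured value entered the choice. Intestinal organoids (enteroids) are balls of epithelium that grow in gel from isolated crypts and hold no blood, muscle or connective tissue of their own. These organoids came from the ileum, the last stretch of the small intestine, of wild-type C57Bl/6 mice. They had been enriched for stem cells by 96 hours in growth medium with 10 µM CHIR99021, which blocks the kinase GSK3, and the vehicle then followed for 24 hours. All 6 libraries share the CHIR99021 step, so no library shows these organoids without it. The 3 libraries that received retinoic acid in the last 24 hours enter no comparison here. The number of mice or organoid lines, the age of the mice and whether CHIR99021 was still present during the last 24 hours are not stated in the labels. No label says that the 3 libraries came from separate mice or cultures, so the spread between them may be technical.

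RNA was selected by its polyA tail, and the 3 libraries held 16927696, 16592854 and 14919144 counted reads. Levels are counts per 1000000 reads (CPM), and 1 CPM was 14.9 to 16.9 reads. Values are given for vehicle libraries 1, 2 and 3 in that order, and each ± is the SD over these libraries (n = 3). A gene is called on where it reached 1 CPM in each library, trace where it stayed under 1 CPM in each, mixed where the libraries fell on both sides, and undetected where it had 0 reads in all 3. Of the 21534 genes counted, 12650 were on (58.7%), 824 were mixed, 6977 were trace and 1083 were undetected. The last 2 classes, 8060 genes, stayed under 1 CPM in each library (37.4%). Among protein-coding genes 11733 of 18275 were on (64.2%), and 2472 genes of all kinds reached 100 CPM in each library (11.5%). A count of genes on in a list is to be read beside the shares of 58.7% and 64.2%. A limit of 3 counts corresponds to 0.177, 0.181 and 0.201 CPM in the 3 libraries, and lower values cannot be told from 0. Where a gene is said to have the most reads, or a rank by CPM is given, this is an order of reads. Levels of different genes are compared only per kilobase of exon (CPM per kb), because a long transcript gives more reads than a short one.

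As background, the crypt of the small intestine holds dividing stem cells that carry Lgr5, an R-spondin receptor, and lie between Paneth cells, which secrete lysozyme and defensins. Wnt ligands keep these stem cells going by holding back the complex of Axin, APC and GSK3 that destroys beta-catenin. CHIR99021 acts on the same step, and Axin2 is among the genes that beta-catenin and its TCF partners switch on. As cells leave the crypt they become absorptive enterocytes or secretory cells, which are the Paneth, goblet, enteroendocrine and tuft cells. Enterocytes of the ileum take up bile acids and answer them by secreting Fgf15, a hormone that lowers bile acid synthesis in the liver.

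The 5 marker genes of the description were all on. Lgr5 (chr10:115450311-115587780, mm10) was at 130.2, 129.7 and 127 CPM (mean 129 ± 1.73), which placed it at rank 1942 of all genes by CPM. The 3 libraries thus lay within a few percent of each other, a CV of 1.34% where counting alone gives 2.19%. Axin2 (chr11:108920349-108950783), the scaffold of the destruction complex and a reporter of beta-catenin activity, was at 219, 231 and 242 CPM (mean 231 ± 11.2). Library 1 was lowest and library 3 highest for this gene. Mki67 (chr7:135689788-135716379), a protein of dividing nuclei, was at 197, 172 and 194 CPM (mean 188 ± 13.9), with library 2 lowest. Lyz1 (chr10:117287796-117292868), the lysozyme of Paneth cells, was at 3785, 4033 and 3770.1 CPM (mean 3863 ± 148). It was the gene with rank 5 in the table, and per kb it was the highest protein-coding gene, at 3058 ± 117 CPM per kb. Fgf15 (chr7:144896532-144900953) was at 591, 564 and 581 CPM (mean 579 ± 13.2) and held rank 169. So a stem cell gene, a Wnt target, a gene of dividing cells, a Paneth product and an ileal hormone were read in each of the 3 libraries. In RNA from whole organoids fewer cells of a type and less RNA per cell cannot be told apart, so none of these levels is a share of cells.

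Promoters of 5 genes are shown because CG content differed between the genes that were on and those that were not. For 15335 genes a promoter of 300 bases (250 before and 50 after the start, on the gene's strand) was matched in RefSeq, build GRCm38.p6, which is mm10. The number of CG dinucleotides in it was counted, which reads the same on both strands, and TATAA was searched on the gene's own strand with its first base within 50 bases before the start. In the lines that follow, capitals mark CG and, where found, TATAA. Axin2 (chr11:108920099-108920398, + strand, 31 CG) and Mki67 (chr7:135716330-135716629, − strand, 32 CG) stand for promoters rich in CG. Lyz1 (chr10:117292819-117293118, − strand, 2 CG), the goblet cell gene Fcgbp (chr7:28070986-28071285, + strand, 7 CG) and the ileal bile acid binding gene Fabp6 (chr11:43601513-43601812, − strand, 3 CG) stand for promoters poor in it. TATAA began 28 bases before the start in Fcgbp and 27 bases before it in Fabp6.
Axin2: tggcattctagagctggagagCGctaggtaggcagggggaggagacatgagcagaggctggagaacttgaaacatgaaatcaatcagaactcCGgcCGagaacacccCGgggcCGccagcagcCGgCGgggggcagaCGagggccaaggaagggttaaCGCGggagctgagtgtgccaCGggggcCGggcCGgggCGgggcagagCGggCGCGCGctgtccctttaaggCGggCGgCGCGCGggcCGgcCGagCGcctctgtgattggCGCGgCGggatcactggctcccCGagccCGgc
Mki67: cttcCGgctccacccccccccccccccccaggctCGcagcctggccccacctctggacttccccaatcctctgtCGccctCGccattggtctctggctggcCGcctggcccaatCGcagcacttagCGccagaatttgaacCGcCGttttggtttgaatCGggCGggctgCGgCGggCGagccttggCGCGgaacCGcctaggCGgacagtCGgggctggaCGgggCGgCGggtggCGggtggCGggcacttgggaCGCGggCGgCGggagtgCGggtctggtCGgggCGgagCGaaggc
Lyz1: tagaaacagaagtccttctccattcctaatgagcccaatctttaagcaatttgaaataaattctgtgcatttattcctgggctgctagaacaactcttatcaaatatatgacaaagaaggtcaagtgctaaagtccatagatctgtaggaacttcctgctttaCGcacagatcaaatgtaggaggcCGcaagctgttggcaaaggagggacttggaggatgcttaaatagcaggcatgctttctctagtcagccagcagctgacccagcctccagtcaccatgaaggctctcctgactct
Fcgbp: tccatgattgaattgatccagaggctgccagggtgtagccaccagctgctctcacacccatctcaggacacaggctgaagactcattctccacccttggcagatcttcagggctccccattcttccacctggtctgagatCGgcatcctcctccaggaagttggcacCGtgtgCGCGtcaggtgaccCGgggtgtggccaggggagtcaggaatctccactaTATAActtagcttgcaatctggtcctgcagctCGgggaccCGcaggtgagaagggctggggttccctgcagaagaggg
Fabp6: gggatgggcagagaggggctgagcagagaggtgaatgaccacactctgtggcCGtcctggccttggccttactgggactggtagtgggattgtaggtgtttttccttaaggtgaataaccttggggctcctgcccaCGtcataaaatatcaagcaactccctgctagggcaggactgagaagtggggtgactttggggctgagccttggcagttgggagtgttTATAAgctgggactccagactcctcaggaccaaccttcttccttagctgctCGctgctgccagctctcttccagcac
Promoters poor in CG stood at both ends of the range of levels, since Lyz1 and Fcgbp were among the 5 genes with the most reads while Fabp6 was trace. Over protein-coding genes the median number of CG was 21 where the gene was on, 13 where it was mixed, 6 where it was trace and 3 where it was undetected. Each gene counted had at least 1 read over the 6 libraries, so the undetected genes had theirs only in the retinoic acid libraries. They do not stand for all genes that were silent with vehicle. TATAA in the window was found in 2.68% of promoters of protein-coding genes that were on, 8.17% of those that were trace and 10.5% of those that were undetected, beside 4.55% of all matched promoters. Among the 200 protein-coding genes with the highest CPM per kb the share with TATAA was 12%. Genes of dividing cells had a median of 24 CG (25 promoters matched) and Wnt targets 21 (15 matched). The Paneth list had 2 (15 matched, TATAA in 8), the enterocyte list 4 (31 matched, TATAA in 6), the goblet list 7 (14 matched, TATAA in 4) and the list of endocrine products 9 (23 matched, TATAA in 9). These counts are descriptions of letters in a fixed window, and absence of the letters says nothing of a factor.

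The genes with the most reads were a mix of nuclear RNA, secreted products, keratin and the translation machinery. Neat1, a long noncoding RNA that builds nuclear paraspeckles, was first with 7993, 7489.7 and 8697 CPM. It is long, so per kb it stood at rank 81, and its ratio to Malat1, another long nuclear RNA, was 1.67 ± 0.049 per kb. Krt19, a keratin of simple epithelium, was second with 4259, 4243 and 4821 CPM, and Fcgbp, a mucus protein of goblet cells, came next with 4285, 4004 and 3865 CPM. Eef2, the elongation factor that moves the ribosome along, had 3829, 4082 and 4148 CPM, and Lyz1 followed. The rest of the first 15 included the desaturase Scd2, the actin Actb, the protease inhibitor Spint2, the sodium pump subunit Atp1b1, the processed pseudogene Gm1840, the elongation factor Eef1a1, the chaperone Hsp90ab1, the lectin Lgals4 and the cyclin Ccnd2. Per kb Lyz1 and Krt19 were the highest protein-coding genes and their levels were close, with a ratio of 1.09 ± 0.106; library 3 was the one in which Krt19 was higher. The first 10 genes held 3.81 to 3.95% of the reads of a library, the first 100 held 13.8 to 14% and the first 1000 held 44.9 to 45.2%. No small set of transcripts thus took over the counted reads of a library, and 50 genes reached 1000 CPM in each. These shares and ranks are of counted reads only. How reads that match several places were counted is not given, so transcripts with many copies may be under-represented in them.

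All genes of a list of 21 keratins, junction genes and gut transcription factors of epithelium were on, beside 64.2% of protein-coding genes. The list was drawn up with earlier results of these data known, so this count is no test of epithelial identity. The adhesion genes Cdh1 and Epcam were at 1775 ± 67.4 and 1539 ± 58.1 CPM. Hnf4a, a nuclear receptor that drives enterocyte genes, was at 1449, 1583 and 1494 CPM. Its paralogue Hnf4g was lower by a factor of 11 ± 0.653 per kb. Cdx2 and Cdx1, the homeobox factors that give the gut its intestinal identity, were at 234 ± 10.8 and 243 ± 22.3 CPM per kb. Their ratio was 0.969 ± 0.0818, so they did not differ beyond the spread. Krt19 exceeded Krt20, the keratin of mature cells at the top of the villus, by a factor of 30.8 ± 2.36 per kb.

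Of 24 genes of crypt base stem cells 22 were on (91.7%, beside 64.2% of protein-coding genes), and 11 of them reached 100 CPM in each library. Those with the most reads were Slc12a2, the sodium, potassium and chloride cotransporter of crypt cells, at 992, 1004 and 984, and Ephb2, an ephrin receptor that holds cells low in the crypt, at 406, 407 and 413. Prom1, Rnf43 and Sox9 came next in reads with means of 376, 309 and 298 CPM. Rnf43, a ubiquitin ligase that removes Wnt receptors, varied little, at 309, 314 and 303 CPM. Smoc2, a matrix protein of stem cells, was at 161, 177 and 171 CPM. Olfm4, a secreted stem cell protein, was at 80.7, 75.7 and 109 CPM, with library 3 above the other 2. Ascl2, the transcription factor that sets the stem cell programme, was at 21.1, 24.3 and 27.7 CPM (mean 24.4 ± 3.3). Fstl1 was mixed, and Nrn1 was the only trace gene of the list. The median of the 22 genes on was 29 CPM per kb, beside 11.5 CPM per kb over all genes on.

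Every gene of the list of dividing cells was on, 30 of 30, beside 64.2% of protein-coding genes. Mki67 was the only one to reach 100 CPM in each library. Top2a, the topoisomerase that untangles chromosomes, was at 88.2, 77.6 and 90.4 CPM, and Mcm2, part of the replicative helicase, was at 85.7, 89.7 and 98.7 CPM. Pcna, the clamp of the replication fork, was at 59.5, 69.8 and 71.1 CPM with library 1 lowest, and Cdk1, the kinase that starts mitosis, was at 22.8, 17.6 and 18.9 CPM with library 1 highest. Genes of the brake on the cycle were read beside them, since all 7 inhibitors of cyclin-dependent kinases were on. Cdkn1a, the inhibitor p21 that p53 switches on, was at 692, 711 and 739 CPM, and per kb it exceeded Mki67 by a factor of 14.1 ± 1.17. Cdkn1b and Cdkn2b were at 209 ± 7.45 and 168 ± 14.5 CPM. Cdkn2a was at 5.38, 5.43 and 5.29 CPM.

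Paneth cell genes were read unevenly, with Lyz1 far ahead of the rest and some defensins trace. The list was drawn up with 31 genes, of which 6 were not among the genes counted and may have had no reads. Of the 25 that were counted, 20 were on (80%, beside 64.2% of protein-coding genes) and 5 were trace. The summed level was 7200.2, 7292 and 6832 CPM. Next in reads after Lyz1 came Itln1, an intelectin that binds microbial sugars, at 802, 806 and 766 CPM, Cd24a at 663, 639 and 535 CPM and Nupr1 at 595, 516 and 612 CPM. Defa24, an alpha defensin, was at 507, 446 and 441 CPM, and per kb, at 1109 ± 88.6, it was the second gene of the list. Ang4, an antimicrobial ribonuclease, was at 444, 446 and 378 CPM, and Mmp7, the protease that activates defensins, was at 182, 212 and 137 CPM with library 3 lowest. Defa21, Defa17, Defa22 and Defa5 were trace, and Defa22 had 0.355, 0.362 and 0.134 CPM. Defensin genes are near-identical copies, so how reads were shared among them is uncertain. Lyz2, the lysozyme of macrophages, which lies next to Lyz1, was trace at 0.828, 0.966 and 0.937 CPM, and Lyz1 was higher per kb by a factor of 4437 ± 295. That factor rests on 14 to 16 reads of Lyz2 in a library. Mptx2, a pentraxin of Paneth cells, was on at 5.91, 4.04 and 5.08 CPM.

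Goblet cell genes were on in 22 of 24 cases (91.7%, beside 64.2% of protein-coding genes), with only St6galnac1 and Retnlb trace. Muc2, the main gel-forming mucin, was at 141, 147 and 119.8 CPM. Tff3, a trefoil peptide that is secreted with it, was at 479, 462 and 405 CPM and exceeded Muc2 per kb by a factor of 21.1 ± 0.867. Fcgbp exceeded Muc2 per kb by a factor of 11.9 ± 0.991. The levels of Muc13, a membrane mucin, and of Guca2a, the gut hormone guanylin, were 653 ± 53.6 and 214 ± 6.47 CPM. Agr2, which folds mucins, was at 139.7, 148 and 107 CPM, Clca1 at 112, 117 and 88.2 CPM and the lectin Zg16 at 32.6, 26 and 23.7 CPM. For each of these last 3 library 3 was the lowest.

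Of the genes of enteroendocrine cells 13 of 15 transcription factors and 20 of 24 products were on. These shares, 86.7% and 83.3%, stood beside 64.2% of protein-coding genes. Neurog3, the factor that commits a cell to the endocrine line, was at 17.1, 17.4 and 18.7 CPM, and its target Neurod1 was at 25.1, 24.2 and 19.5 CPM. Sox4, which is not restricted to this lineage, had the most reads of the factors, at 426 ± 22.2 CPM. Pax4 was mixed and Hhex trace. Chgb, a granin of secretory granules, was at 816, 852 and 608 CPM and its relative Chga at 97.2, 112 and 73.7 CPM, a ratio of 5.55 ± 0.3 per kb. Reg4 was at 275, 338 and 247 CPM. The hormones Cck and Gcg, the second of which encodes glucagon-like peptides, were at 101, 114 and 90.2 and 78, 86.4 and 49.7 CPM. Tph1, the enzyme of serotonin synthesis in enterochromaffin cells, was at 9.64, 11.4 and 5.49 CPM. Ghrl, the stomach and duodenal hormone ghrelin, and Iapp were trace, while Gip and Insl5 were mixed. Library 3 was the lowest of the 3 for each of Chgb, Chga, Reg4, Cck, Gcg and Tph1.

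Tuft cell genes lay near the threshold. Of 19 genes 8 were on (42.1%, beside 64.2% of protein-coding genes), 4 mixed, 6 trace and 1 undetected, and none reached 10 CPM. Dclk1, a kinase used as tuft cell marker, was at 3.66, 6.52 and 2.21 CPM. Trpm5, the cation channel of taste and tuft cells, was at 4.73, 4.53 and 4.08 CPM, and Avil, an actin-binding protein, at 5.38, 6.03 and 4.15 CPM. Pou2f3, the factor that makes tuft cells, was mixed at 2.13, 3.08 and 0.669 CPM, with library 3 under the threshold. The cytokine Il25 was trace, and the succinate receptor Sucnr1 was undetected.

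Enterocyte genes covered a wide range. Of 38 genes 30 were on (78.9%, beside 64.2% of protein-coding genes), 4 mixed, 3 trace and 1 undetected. Vil1 and Cdhr5, which build the brush border, were at 588, 586 and 622 and 442, 496 and 553 CPM. Apob, the protein of chylomicrons, was at 469.9, 424 and 424 CPM and the disaccharidase Sis at 384, 366 and 422 CPM. Alpi, the intestinal alkaline phosphatase, was at 15.7, 22.4 and 26.8 CPM, and Sis exceeded it per kb by a factor of 7.42 ± 1.92. The apolipoproteins Apoa1 and Apoa4 were at 28.8, 51.2 and 40.6 and 15.4, 29.8 and 25 CPM. Library 1 was lowest for each of Alpi, Apoa1 and Apoa4. The fatty acid binding protein Fabp2 was at 23.3, 20 and 19.1 CPM, but Fabp1, its more proximal relative, was trace at 0.65, 0.664 and 0.803 CPM. Cd36, a fatty acid transporter, and Reg1 were trace as well, and Tmprss15, the enteropeptidase of the duodenum, was undetected. The lactase Lct was mixed at 0.768, 1.57 and 2.54 CPM.

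Markers of M cells, the antigen-sampling cells over lymphoid follicles, were incomplete. Gp2, the receptor that defines mature M cells, had 0 reads in all 3 libraries. Spib, the factor they need, was at 3.66, 5.43 and 2.21 CPM, while Tnfaip2 was at 28.8, 29 and 27.8 CPM. Sox8, Aif1 and Fcgr1 were trace. The gene with the most reads in the list was Clu at 193, 173 and 154 CPM, a secreted chaperone that also stands in the list of fetal and revival genes.

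In that list of fetal-type epithelium and of the response to injury 18 of 19 genes were on, 94.7% beside 64.2% of protein-coding genes. Of these genes 10 reached 100 CPM in each library. The keratin Krt7 was at 738, 708 and 751 CPM and the calcium-binding S100a6 at 448, 401 and 445 CPM. Areg and Ereg, ligands of the EGF receptor family, were at 448, 434 and 411 and 272, 230.3 and 226 CPM, a ratio of 6.05 ± 0.416 per kb. Anxa2 was at 306, 319.7 and 298 CPM and Ly6a, the surface antigen Sca-1, at 304, 272 and 242 CPM. For both Clu and Ly6a library 1 was highest and library 3 lowest. Spp1 was the only trace gene.

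**Figure D1:**
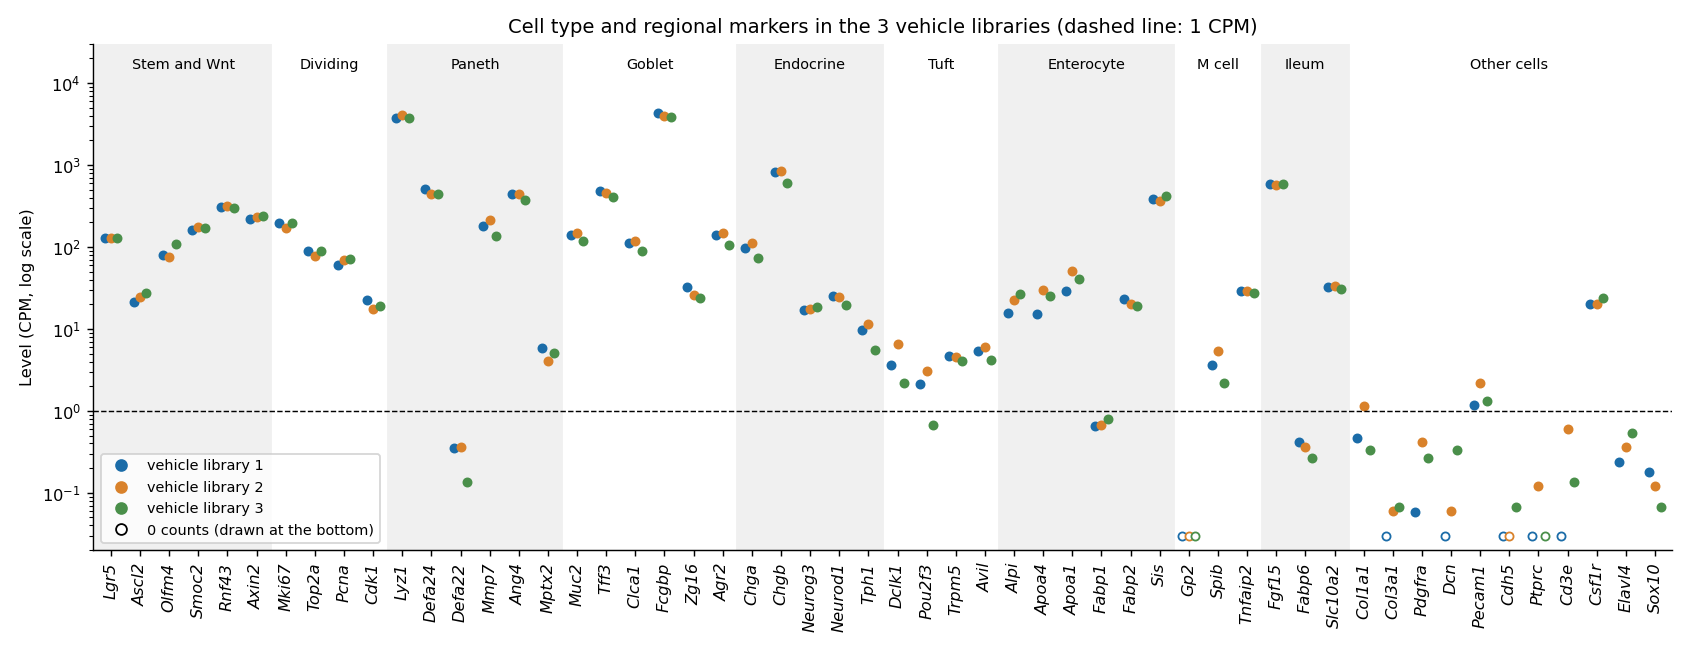
Levels of cell type and regional markers in the 3 vehicle libraries, in CPM on a log axis, with 1 point for each library and the threshold of 1 CPM as a dashed line. Stem cell, dividing cell, Paneth, goblet and endocrine markers lie above the line except Defa22, the tuft cell markers lie close to it, and Gp2, with 0 reads, is drawn at the bottom.

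The label of the samples is intestinal stem cells, and the markers show more than that cell type. Stem cell markers were on together with Paneth, goblet, endocrine and enterocyte markers in each of the 3 libraries. Markers of cells outside the epithelium were mostly under the threshold. Of 16 genes of fibroblasts and muscle 2 were on, Tagln and Pdgfrb at 5.34 ± 0.832 and 4.19 ± 0.674 CPM, and the summed level of the list was 11.6, 11.9 and 13.4 CPM. Col3a1 was at 0, 0.0603 and 0.0669 CPM, Dcn at 0, 0.0603 and 0.334 CPM and Pdgfra at 0.0591, 0.422 and 0.268 CPM. In the endothelial list 4 of 10 were on, with the most reads for Prox1 and Lyve1, at 13.4, 13.2 and 6.96 and 9.75, 10.7 and 6.89 CPM, and Prox1 is also a gene of enteroendocrine cells. Cdh5, the cadherin that defines endothelium, had 0, 0 and 0.0669 CPM. In the immune list 4 of 16 were on, which were Kit, Cd14, Csf1r and Cd68 with means of 41.7, 36.3, 21.5 and 4.39 CPM. Ptprc, which all white blood cells carry, was at 0, 0.121 and 0 CPM, and the T cell gene Cd3e was at 0, 0.603 and 0.134 CPM. Of 11 neural and glial genes 4 were on, among them Ret at 9.69, 10.4 and 7.96 CPM, and Elavl4 and Sox10 were trace. The erythroid gene Alas2 was trace.

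Of the 3 ileal markers Fgf15 and Slc10a2 were on, and Fabp6 was not. Of 16 genes of the ileum and of bile acid handling 12 were on, 75% beside 64.2% of protein-coding genes. Slc10a2, the transporter that takes up bile acids, was at 32.9, 33.6 and 30.3 CPM, and Fgf15 exceeded it per kb by a factor of 41.2 ± 2.73. Tcn2, a carrier of vitamin B12, was at 72.4, 86.4 and 82.6 CPM and Guca2b, the hormone uroguanylin, at 41.7, 49.2 and 57.2 CPM. The bile acid receptor Nr1h4, which switches on Fgf15, was at 42.7, 49.6 and 43.1 CPM. Fabp6, which carries bile acids within ileal enterocytes and is a target of the same receptor, was trace at 0.414, 0.362 and 0.268 CPM. Of the bile acid exporter, Slc51a was on at 3.84, 5.73 and 4.08 CPM and its partner Slc51b was mixed at 0.473, 1.03 and 1.61 CPM. The bile acid receptor Gpbar1 was trace, and Nr0b2, the repressor SHP, was undetected.

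Genes of the proximal small intestine were on in 9 of 13 cases. That share, 69.2%, stood beside 75% of the ileal list and 64.2% of protein-coding genes. Gata4, the factor of jejunal identity, was at 72.5, 80.1 and 80.5 CPM, and Pdx1, the duodenal factor, was close to the threshold at 2.19, 1.45 and 2.74 CPM. Slc11a2, Slc40a1 and Cybrd1, genes of iron absorption, were at 144, 249 and 139, 68.7, 97.8 and 62.8 and 70.2, 72.8 and 55.7 CPM. For Slc11a2 library 2 stood above both others. Of 15 genes of the colon 2 were on. One of them, Car1, a carbonic anhydrase of the colon, was at 32.7, 56.7 and 171 CPM. The mean of Car1 without library 3 is 44.7 CPM. Muc1 and Car4 were trace. Of 14 stomach genes 2 were on, Anxa10 at 11.3, 13.4 and 7.83 CPM and Atp4a at 2.25, 1.27 and 2.61 CPM, while Tff2, Muc6, Tff1 and Gkn3 were trace and Sox2 was undetected. Of 12 genes of other organs 3 were on, and the one with the most reads, the elastase Cela1, was at 4.14, 4.16 and 4.55 CPM.

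The Hox genes, which record position along the body axis, gave a pattern by cluster. In the Hoxb cluster 8 of 10 genes were on, against 3 of 10 in Hoxa, 3 of 8 in Hoxd and 0 of 9 in Hoxc. Hoxb9 had the most reads, at 140.3, 159 and 120.4 CPM, and was above Hoxb4 per kb by a factor of 5.84 ± 0.373. Hoxb7, Hoxb8 and Hoxb6 were at 77.1, 84.3 and 61.3, 68.5, 74.8 and 57.2 and 48.7, 63.7 and 47.2 CPM. Per kb Hoxb7 and Hoxb9 were at 57.5 ± 9.12 and 54.4 ± 7.6 CPM per kb and moved together between libraries, with a ratio of 1.05 ± 0.04 within a library, above 1 in each of the 3. Hoxb1 and Hoxb13, at the ends of the cluster, were trace. In Hoxd, Hoxd3 was at 28, 26.5 and 27.3 CPM, Hoxd4 at 22.8, 21.8 and 22.2 CPM and Hoxd8 at 3.55, 3.44 and 2.68 CPM. Hoxd1, Hoxd9 and Hoxd11 were trace and Hoxd10 was undetected. Hoxd13 was mixed at 1, 0.422 and 0.87 CPM. In Hoxa the gene with the most reads was Hoxa3 at 6.44, 4.53 and 6.69 CPM, while Hoxa11 and Hoxa13 were undetected. Hoxc6 had the most reads of its cluster at 0.532, 0.543 and 0.334 CPM. In each of the Hoxa and Hoxd lists 1 gene was not among the genes counted and may have had no reads. No level is given for Hoxa6 and Hoxd12.

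**Figure D2:**
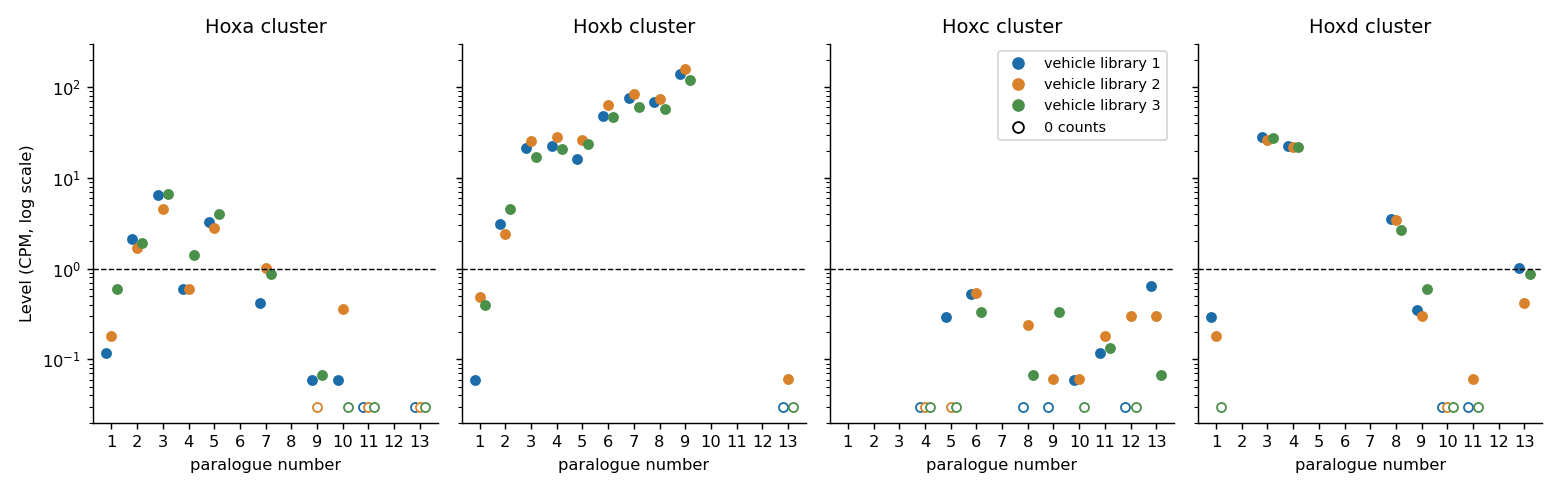
Level of each Hox gene in the 3 vehicle libraries, in CPM on a log axis, against its paralogue number in the 4 clusters, with a dashed line at 1 CPM and open circles at the bottom for 0 reads. Hoxb2 to Hoxb9 lie above the line in each library, as do Hoxa2, Hoxa3 and Hoxa5 and Hoxd3, Hoxd4 and Hoxd8, and no Hoxc gene reaches it.

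The Wnt pathway was read from ligand to target. Of 14 genes for ligands and their secretion 4 were on (28.6%, beside 64.2% of protein-coding genes), 3 mixed and 7 trace. Of the 14 genes 6 reached 0.5 CPM in each library. Wls, which carries Wnt proteins to the surface, was at 152, 145 and 133 CPM, Wnt3, the ligand of Paneth cells, at 35.4, 39.5 and 31.4 CPM and Porcn, which adds the lipid, at 6.21, 7.91 and 3.95 CPM. The R-spondin Rspo4 was at 2.66, 2.35 and 1.4 CPM and Rspo3 was trace. Wnt7b, Wnt2b and Wnt5b were mixed, and Wnt5a, Wnt9b, Wnt10a, Wnt6, Wnt4 and Wnt11 were trace. Of 18 receptors and coreceptors 14 were on (77.8%). The R-spondin receptor Lgr4 was at 273, 279 and 283 CPM, above Lgr5 per kb by a factor of 2.01 ± 0.0609, and Lgr6 was trace. Among Frizzled receptors Fzd5 had the most reads at 243, 226 and 260.1 CPM, above Fzd7 by a factor of 1.91 ± 0.188 per kb. Fzd7 was at 85.4, 85.1 and 80.7 CPM. The coreceptor Lrp5 exceeded Lrp6 by a factor of 1.73 ± 0.227 per kb. Fzd6, Fzd1, Fzd2, Fzd8, Fzd4 and Fzd9 were on with means from 6.36 to 27.5 CPM, Fzd3 and Fzd10 were mixed, and Ror1 was trace while Ror2 was on at 17.1, 16.9 and 16.5 CPM.

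Inside the cell 15 of 16 genes of the pathway were on, 93.8% beside 64.2% of protein-coding genes. Ctnnb1, which encodes beta-catenin, was at 1630.01, 1578 and 1557 CPM. Gsk3b, the target of CHIR99021, was at 286, 283 and 258 CPM, Apc at 249, 232 and 246 CPM and the kinase Csnk1a1 at 918, 897 and 827 CPM. Tcf7l1 was the only trace gene. Of 26 target and feedback genes 21 were on (80.8%). Ccnd1, the cyclin of the first gap phase, was at 701, 667 and 757 CPM, Cdx1 at 391, 415 and 467 CPM and Sox9 at 298, 273 and 323 CPM. Of the secreted inhibitors of the pathway, Notum, Wif1, Dkk2 and Sfrp1 were trace, Sfrp5 was mixed and Dkk3 lay just over the threshold at 1.54, 1.33 and 1.2 CPM.

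Notch genes, which in the crypt keep cells from the secretory fate, were on in 15 of 22 cases, 68.2%, near the 64.2% of all protein-coding genes. Hes6 had the most reads at 177, 191 and 195 CPM. Hes1, the repressor that Notch switches on, was at 92.5, 93.1 and 80.8 CPM and the ligand Jag1 at 89.2, 86.2 and 87 CPM. The cofactor Maml1 and the feedback gene Nrarp were at 112 ± 8.56 and 59 ± 3.04 CPM. Dtx1, Hey1, Heyl and Hey2 were trace, and Hes5, Dll3 and Mfng were mixed.

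Of 24 receptors for growth factors and guidance cues 17 were on, 70.8% beside 64.2% of protein-coding genes. Epha2, an ephrin receptor, had the most reads at 329.8, 317 and 337 CPM. Within the EGF receptor family Erbb3 was at 241, 246 and 227 CPM, Erbb2 at 161, 180.1 and 173 CPM and Egfr at 44.3, 46.3 and 35.5 CPM. Per kb Erbb3 was above Egfr by a factor of 10.4 ± 1.09 and Erbb2 by 9.03 ± 1.43, and Erbb4 was trace. The ligands of this family, picked after their values were seen, were read in the same libraries, with Areg and Ereg as given above, Tgfa at 123, 118 and 109 CPM, Btc at 126, 113 and 102 CPM and Hbegf at 46.2, 43 and 41.3 CPM. Egf itself was mixed at 0.65, 0.966 and 1 CPM and Nrg1 was trace. The insulin receptor Insr was at 128, 128 and 110.2 CPM, the scavenging receptor Igf2r at 146, 138 and 130.5 CPM and the IGF receptor Igf1r at 20.6, 17.6 and 19.6 CPM. Met and Mst1r, receptors of hepatocyte growth factor and its relative, were at 72.5, 70.1 and 66.8 and 70.4, 77.7 and 73.3 CPM. Kit, the receptor of stem cell factor, was at 45.5, 44.4 and 35.3 CPM. Of the FGF receptors Fgfr2 and Fgfr3 were at 23.2, 26.7 and 24.8 and 16.3, 18.3 and 14.9 CPM and Fgfr4, the receptor of Fgf15, was at 3.01, 2.23 and 3.08 CPM. Its coreceptor Klb was mixed at 0.946, 1.27 and 2.27 CPM, as was Fgfr1. Axl, Pdgfra, Ntrk2 and Kdr were trace.

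Genes of the BMP and TGF-beta pathways, which restrain growth, were on in 19 of 24 cases, 79.2% beside 64.2% of protein-coding genes. Tgfbr2 was at 563, 523 and 536 CPM and its partner Tgfbr1 at 59.6, 59.8 and 57.6 CPM. Bmpr1a was at 189.5, 183 and 158 CPM, whereas Bmpr1b was trace. The BMP target genes Id1, Id2 and Id3 were at 34.8, 33.2 and 32.2, 26.8, 24.1 and 19.6 and 18.3, 20.5 and 18.2 CPM. Smad4, the common mediator, was at 101, 94 and 108 CPM, Smad7 at 29.2, 29.4 and 32.8 CPM, Smad6 was mixed and Smad9 and Eng were trace.

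Of 48 nuclear receptors 34 were on, 3 mixed, 10 trace and 1 undetected. The share on was 70.8%, beside 64.2% of protein-coding genes. Hnf4a had the most reads, and the vitamin D receptor Vdr was at 470.00, 550.3 and 463 CPM, or 0.327 ± 0.0189 of Hnf4a per kb. Ppard, a sensor of fatty acids, was at 275, 299.98 and 275 CPM and exceeded Pparg by a factor of 2.91 ± 0.0875 per kb, while Ppara was at 3.9, 4.16 and 4.35 CPM. The glucocorticoid receptor Nr3c1 was at 204, 189 and 187 CPM and the mineralocorticoid receptor Nr3c2 at 70.9, 73 and 70.9 CPM. The xenobiotic sensors Nr1i2 and Nr1i3 were at 81.6, 96.7 and 89.6 and 33.9, 35.1 and 40.2 CPM, and Ahr was at 39.3, 35.5 and 30.2 CPM. The retinoic acid receptors Rara and Rarg were at 52.6, 55 and 56.9 and 29.7, 30.4 and 25.2 CPM, with a ratio of 1.54 ± 0.212 per kb, and Rarb was trace at 0.709, 0.302 and 0.401 CPM. Their partners Rxra and Rxrb were at 119.5, 129.6 and 133 and 74.4, 82.3 and 80.9 CPM, a ratio of 0.91 ± 0.0184 per kb, and Rxrg was trace. Of the sex hormone receptors Esr1 was mixed, and Esr2 and Pgr were trace. Nr2f1, Nr2e1, Esrrb, Nr2e3 and Nr5a1 were trace too, while Nr5a2, the stem cell factor LRH-1, was on at 19.9, 15.3 and 18.7 CPM.

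Receptors that couple to G proteins were on in 20 of 36 cases, 55.6%, beside 58.7% of all genes and 64.2% of protein-coding genes. The list also holds Gucy2c, the guanylin receptor, which was at 138, 137 and 136 CPM. Gprc5a had the most reads at 244, 246 and 221 CPM. The adenosine receptor Adora1 was at 195, 232 and 169 CPM, the VIP receptor Vipr1 at 169, 179.9 and 193 CPM and the protease-activated receptor F2rl1 at 156, 146 and 149.7 CPM. Of the prostaglandin E2 receptors Ptger1 and Ptger4 were at 129.99, 133 and 157 and 37.8, 41.2 and 41.5 CPM, Ptger3 was mixed and Ptger2 was undetected. The fatty acid receptors Ffar4, Ffar2 and Ffar1 were at 22.9, 20.9 and 24.7, 4.61, 5.55 and 4.42 and 1.89, 3.08 and 1.47 CPM and Ffar3 was mixed. Hormone receptors Glp1r, Glp2r and Cckar were trace, and Gipr was on at 3.96, 3.32 and 1.87 CPM. The muscarinic receptors Chrm3 and Chrm1 were at 4.26, 3.2 and 1.34 and 3.31, 2.72 and 1.81 CPM. Casr, Hcar2, Npy1r, Mc1r and Vipr2 were trace.

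Receptors for cytokines were on in 23 of 29 cases, 79.3% beside 64.2% of protein-coding genes. Pigr, which carries immunoglobulin A across the epithelium, was at 1099.7, 1185 and 908 CPM with library 3 lowest. Both chains of the interferon gamma receptor, Ifngr1 and Ifngr2, were at 307, 315 and 305 and 178, 177 and 172 CPM. For type I interferon Ifnar1 and Ifnar2 were at 78.4 ± 6.29 and 18.7 ± 1.87 CPM, and for interferon lambda Ifnlr1 was at 61.1 ± 1.44 CPM. Il22ra1 and Il10rb, which pair as the receptor of IL-22, were at 81.8, 67.9 and 88.1 and 118, 109 and 112 CPM. Il4ra and Il13ra1, which bind IL-4 and IL-13, were at 64.2 ± 2.22 and 81.9 ± 9.71 CPM. Il6st, the shared chain of the IL-6 family, was at 83.3, 66.3 and 72 CPM, while Il6ra was at 2.6, 2.35 and 2.68 CPM and Lifr and Osmr were trace. Il2rg and Il10ra, receptors of white blood cells, were trace.

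Sensors of microbes were on in 20 of 27 cases, 74.1% beside 64.2% of protein-coding genes. Nlrp6, an inflammasome sensor of the gut epithelium, was at 334, 388 and 365 CPM. The flagellin and secretion system sensors Naip6, Naip1, Naip2 and Naip5 were at means of 262, 179, 121 and 108 CPM, and their partner Nlrc4 was at 112, 100.4 and 101 CPM. The Naip genes are near-identical neighbours, so the split of reads among them is uncertain. Among Toll-like receptors Tlr4 and Tlr3 were at 34.3, 37.3 and 34.3 and 37.2, 30.4 and 27.5 CPM, Tlr2 at 7.98, 6.52 and 7.09 CPM and Tlr5 at 1.18, 2.11 and 1.67 CPM. Tlr6, Tlr7, Tlr9, Tlr11, Tlr12 and Tlr13 were trace. Nod1 was at 9.69, 10.4 and 9.23 CPM and Nod2, a Paneth cell sensor, was just over the threshold at 1, 1.45 and 1.81 CPM.

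**Figure D3:**
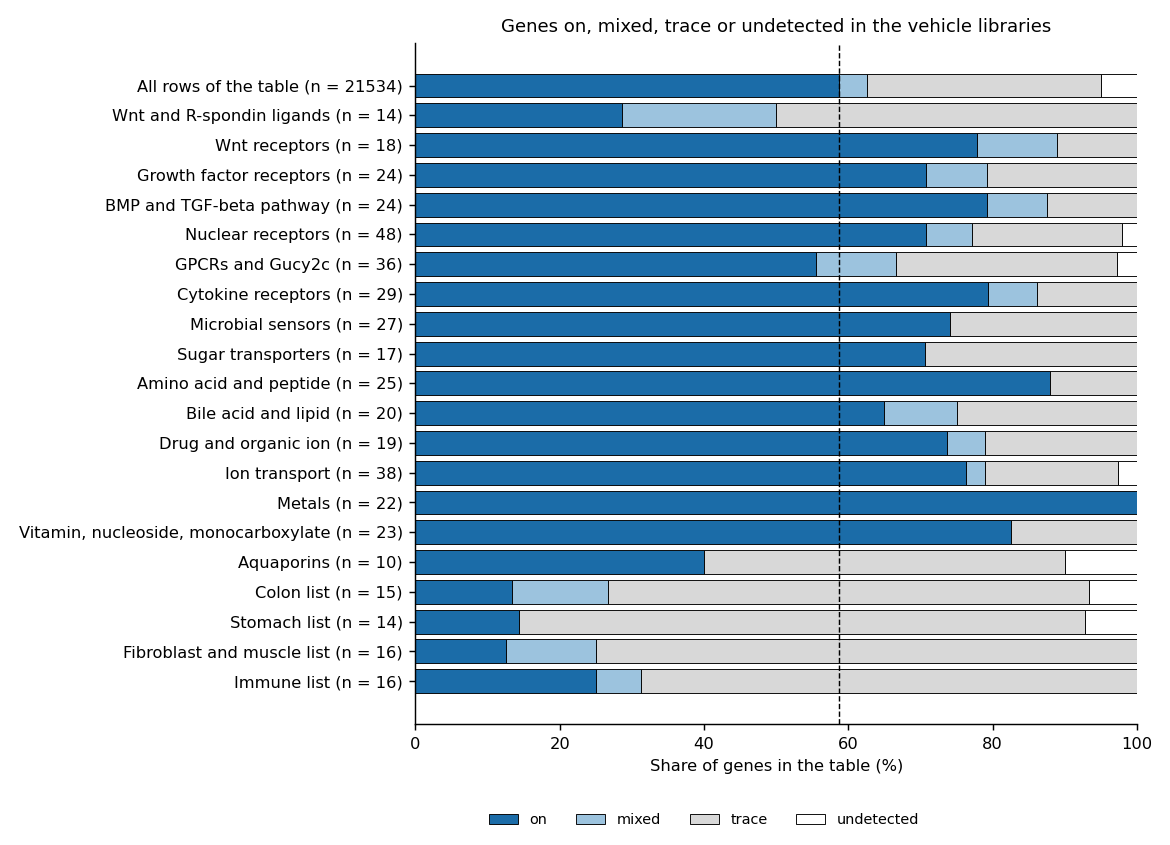
Share of genes that were on, mixed, trace or undetected in the vehicle libraries, in percent of the genes of each list that the table holds, with all 21534 genes on top and a dashed line at their share on, 58.7%. Metal transport is on in full, and the list of G protein-coupled receptors ends close to the line. The lists of Wnt ligands and their secretion, aquaporins, colon, stomach, fibroblast and immune genes lie below it.

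Sugar transport was on for 12 of 17 genes, 70.6% beside 64.2% of protein-coding genes. The sodium-coupled glucose carrier of the brush border, Slc5a1, was at 322, 346 and 374 CPM, and Slc2a1, the glucose carrier of growing cells, was at 281, 289 and 294 CPM. Slc2a2, which lets glucose leave the enterocyte, was at 11.2, 18.6 and 18.1 CPM with library 1 lowest. Per kb Slc2a1 was above Slc2a2 by a factor of 32.4 ± 9.19 and Slc5a1 by 30.8 ± 7.42. The fructose carrier Slc2a5 was at 2.84, 5.19 and 8.16 CPM, so that library 3 was 2.88 times library 1. Slc2a7, Slc2a3, Slc5a4b, Slc2a4 and Slc5a4a were trace.

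Carriers of amino acids were on in 22 of 25 cases (88%, beside 64.2% of protein-coding genes), and 10 of them reached 100 CPM in each library. The glutamine carriers Slc38a1, Slc1a5 and Slc38a2 were at 981, 1082 and 859.7, 814, 851 and 793 and 586, 546 and 576 CPM. Slc7a5 and Slc3a2, which form the carrier of large neutral amino acids, were at 399.7, 359 and 463 and 374, 354 and 415 CPM, and the cationic carrier Slc7a1 was at 544, 464 and 505 CPM. Slc6a19, the neutral amino acid carrier of the villus, was at 9.75, 15.3 and 18.7 CPM, and Slc1a5 exceeded it per kb by a factor of 86.1 ± 29.9. Slc7a9 was at 12.2, 15.2 and 16.5 CPM, its partner Slc3a1 at 61.2, 75.5 and 79.2 CPM and Slc15a1, which takes up peptides, at 1.3, 2.66 and 1.54 CPM. Slc6a20a, Slc38a3 and Slc38a5 were trace.

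Of 20 carriers of bile acids and lipids 13 were on, a share of 65% that lies close to the 64.2% of protein-coding genes. The sterol exporters Abcg5 and Abcg8 were at 158, 165 and 185 and 181, 192 and 237 CPM and the cholesterol importer Npc1l1 at 102, 125 and 137 CPM. Abcc3, which exports bile acids at the basal side, was at 181, 199.5 and 169.99 CPM. The fatty acid carrier Slc27a4 was at 84.4, 97.2 and 103 CPM. Abcb11 and Slc10a1, the bile acid carriers of the liver, were trace, as were Slc27a5 and Abcb4, and Abca1 was mixed at 1.48, 2.17 and 0.334 CPM.

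Of 19 carriers of drugs and organic ions 14 were on, 73.7% beside 64.2% of protein-coding genes. Abcb1a, the multidrug pump P-glycoprotein, was at 249, 252 and 295 CPM, whereas its near-identical copy Abcb1b was trace at 0.709, 0.543 and 0.268 CPM. Abcc2 and Abcc1 were at 123, 126 and 140.2 and 120.1, 106 and 105 CPM and Abcg2 at 15, 13.2 and 16 CPM. Slc22a5, the carnitine carrier, was at 37.1, 42.6 and 40.5 CPM. Slco2b1, Slc47a1 and Slco1a4 were trace.

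Ion transport was on for 29 of 38 genes, 76.3% beside 64.2% of protein-coding genes, with the most reads for the pump subunit Atp1b1. Slc12a2 had the level given above for stem cell genes. Cftr, the chloride channel of crypt cells, was at 184, 164 and 154 CPM and the calcium-activated chloride channel Ano1 at 151, 136 and 134 CPM. The potassium channels Kcnq1, Kcne3 and Kcnn4 were at 209.7, 218 and 216, 75.8, 61 and 78.1 and 65.4, 63.5 and 72.4 CPM. Of the absorptive exchangers Slc9a3, the sodium and proton exchanger of the brush border, was at 2.31, 2.96 and 3.55 CPM and the chloride exchanger Slc26a3 at 11.2, 12.6 and 17.3 CPM. Per kb Slc12a2 was above Slc9a3 by a factor of 274 ± 60.4 and Cftr above Slc26a3 by 4.97 ± 1.47. In both ratios library 1 was highest and library 3 lowest. The calcium-binding S100g was at 129, 176 and 92.9 CPM, and the calcium channel Trpv6 was trace. Of the sodium channel Scnn1a was on at 7.86, 9.9 and 7.36 CPM, Scnn1g was trace and Scnn1b was undetected.

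All 22 genes of metal transport and storage were on, beside 64.2% of protein-coding genes, and 13 of them reached 100 CPM in each library. Fth1, the heavy chain of ferritin, was at 828, 953 and 967 CPM and the transferrin receptor Tfrc at 323, 342 and 288 CPM. The manganese exporter Slc30a10 was at 469, 600.5 and 386 CPM and the zinc importer Slc39a4 at 218, 254 and 265 CPM. The copper importer Slc31a1 was at 253, 267 and 246 CPM. For Slc30a10, Slc11a2 and Slc40a1 library 2 was highest.

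Among 23 carriers of vitamins, nucleosides and monocarboxylates 19 were on, 82.6% beside 64.2% of protein-coding genes. The lactate carriers Slc16a3 and Slc16a1 were at 331, 375 and 358 and 272, 266 and 245 CPM and the folate carriers Slc19a1 and Slc46a1 at 137, 140.3 and 127 and 31.1, 27.6 and 32.8 CPM. The choline carrier Slc44a1 was at 268, 260.3 and 241 CPM. Slc23a1, which takes up vitamin C, Slc28a1, Slc19a3 and Stra6 were trace. Of 10 aquaporins 4 were on (40%), and Aqp1 had the most reads at 461, 482 and 486 CPM. Aqp4 and Aqp11 were at 31, 28.4 and 24.5 and 21.1, 28.7 and 25.3 CPM and Aqp9 just over the threshold at 1.66, 1.33 and 1.61 CPM. Aqp7, Aqp3, Aqp5, Aqp6 and Aqp8 were trace and Aqp2 was undetected.

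The 3 libraries were close to each other but not equal. The biological coefficient of variation that edgeR estimated over the genes that were on was 7.45%. For the 9851 genes that averaged 10 CPM or more the median CV was 6.15%, where counting alone gives 3.44%, and 79.1% of these genes had a CV under 10%. Only 192 of them (1.95%) had a CV over 20%, and 10 spanned a factor of 2 or more. Library 3 stood apart most often: of the 192 genes it was the low one in 69 and the high one in 36. Libraries 1 and 2 differed by more than 1.5-fold in 33 of the 9851 genes, 1 and 3 in 90 and 2 and 3 in 91. The chi-square statistic of the counts was 5.81 to 9.15 per gene for the pairs of libraries, above the value of about 1 that sampling gives, so none was treated as a repeat of another.

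Among these 9851 genes, predicted gene models left out, Car1 varied most, with a CV of 85.2% from the values given above. Library 3 was high and libraries 1 and 2 were low. The next were Kbtbd11 at 17.4, 27.5 and 11.2 CPM, Igdcc4 at 13.8, 14.1 and 5.69 CPM and Slit2, a guidance cue, at 16.8, 15.3 and 7.02 CPM. In Igdcc4 and Slit2 library 3 was the low one. A4gnt, an enzyme of gland mucin sugars, was at 13.4, 12.2 and 5.82 CPM, again with library 3 low. Dio1, which activates thyroid hormone, was at 12.4, 14.9 and 24 CPM with library 3 high, and Cyp2c29, a cytochrome P450, was at 17.9, 36 and 36.7 CPM with library 1 low. Slc11a2 was eighth, with library 2 high. The heat shock gene Hspa1b was at 27.1, 26.6 and 46.8 CPM, and the matrix gene Prelp was at 21.1, 27.4 and 13.5 CPM. Slc1a1, a glutamate carrier, was at 10.7, 13.2 and 6.49 CPM and Ppp1r9a at 14.7, 14.4 and 7.49 CPM. Genes with the smallest spread included Pnn, Sec24c, Rnf145 and Ikbip, with CVs of 0.129 to 0.184%, where counting alone gives 1.46 to 5.20%.

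**Figure D4:**
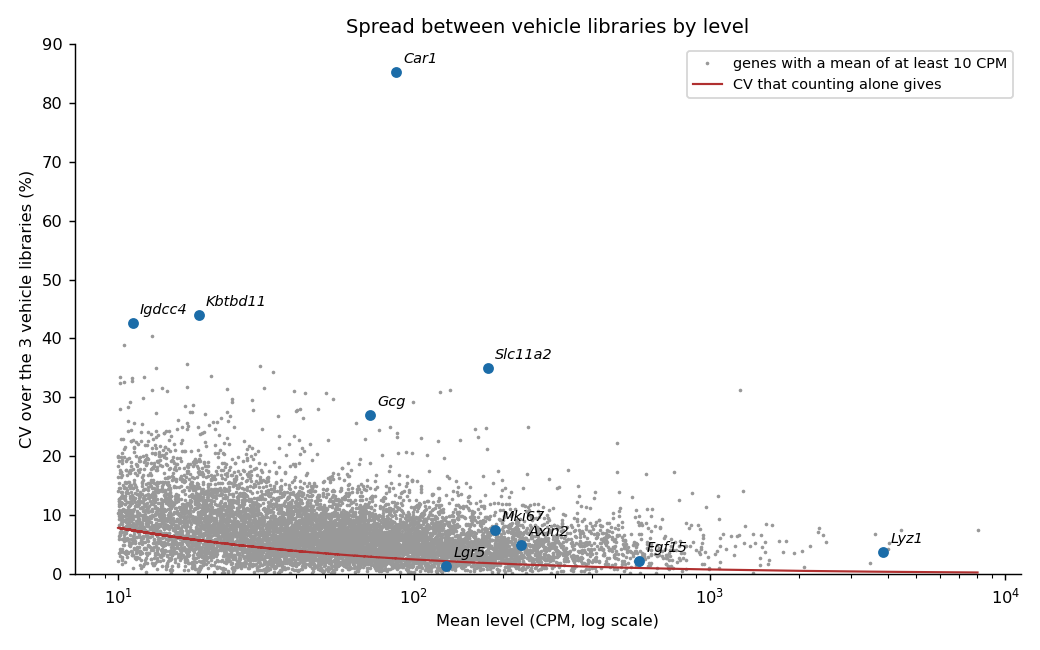
CV over the 3 vehicle libraries in percent against the mean level in CPM on a log axis, with 1 point for each of the 9851 genes that averaged 10 CPM or more and a line for the CV that counting alone gives. Most points lie between 0 and 20%, Lgr5, Axin2, Mki67, Lyz1 and Fgf15 lie under 8%, and Car1 stands alone at 85.2%.

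The libraries differed by list. For each list the level of a library was set against the mean of the other 2, gene by gene over the genes that were on. Over all 12650 genes that were on, library 3 was below the other 2 in 51.9% and above in 48.1%. Library 1 was above in 51.9% and below in 48.1%, and library 2 was above in 48.3%. Library 3 was below in 20 of 20 endocrine products, with a median log2 ratio of −0.46, and in 20 of 22 goblet genes (−0.21). Library 2 was above in 18 of the 20 endocrine products (0.32) and in 7 of 8 Hoxb genes (0.34). Library 1 was below in 24 of 30 enterocyte genes (−0.33), and library 3 was above in 23 of them (0.12). In the fetal and revival list library 3 was below in 14 of 18 (−0.20) and library 1 above in 16 (0.14). In the Paneth list library 1 was above in 16 of 20 (0.17). Shifts were as wide in some lists that are not cell types. Library 3 was below in 7 of 9 proximal genes (−0.36) and 6 of 8 Hoxb genes (−0.30). Among lists with fewer than 5 genes on it was below in 4 of 4 genes for Wnt ligands and their secretion (−0.55). These were Wls, Wnt3, Porcn and Rspo4, the last 2 with fewer reads than the others. Library 3 was above in 2 of 2 colon genes (1.04). One of the 2 is Car1, with a CV of 85.2%, so this median leans on a single gene. The median ratios of the stem cell list lay from −0.02 to 0.03 and those of the dividing cell list from −0.02 to 0.05, where library 3 was above in 20 of 30. Genes of 1 list share the cells they come from, so they are not independent measures, and 3 libraries allow no test of 1 of them.

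**Figure D5:**
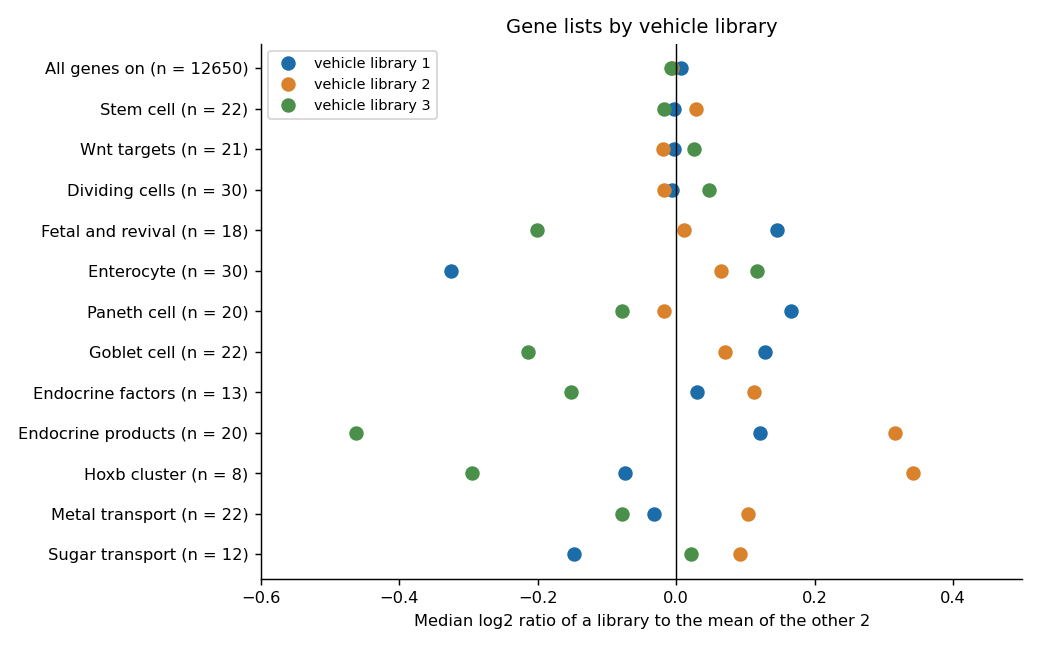
Median log2 ratio of each vehicle library to the mean of the other 2, over the genes of a list that were on, for 12 lists and all genes on. The 3 points of the stem cell, Wnt target and dividing cell lists lie close to 0, while library 3 lies at −0.46 for endocrine products and library 1 at −0.33 for the enterocyte list.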

How the data were processed

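The deposited table holds raw counts per gene for 6 libraries, per the file headers, and only the 3 vehicle columns were described, matched to samples by title. The 3 columns of the retinoic acid group entered 1 alternative scaling. PolyA libraries were directional, per the labels' protocols, and mm10 is the build named in the submitters' processing notes. Which aligner and gene models were used, whether counting used strand and how reads with several matches were handled is not given in the sources used here. Each gene in the table has at least 1 count over the 6 libraries, so genes without any count are not among the 21534. Symbols and exon lengths came from GENCODE M21 for 21102 genes. Libraries were scaled by TMM over the 3 vehicle libraries (factors 0.999, 0.999 and 1.002) in edgeR 4.0.16 under R 4.3.3. CPM per kb divides by the length of the union of exons. Dispersion was estimated with edgeR and an intercept only. No test was run, because no groups are compared. DESeq2 1.42.0 gave size factors for an alternative. The members and the 49 lists were chosen with earlier results of these data known. The lists named 943 genes, of which 909 were among the genes counted, and each count or share of a list is over the latter. Those left out included 6 of 31 Paneth genes, 4 of 16 genes of other organs and 4 of 6 erythroid genes. Genes left out may have had no reads, so shares on over all listed genes would be lower for such lists. The named genes are the 5 markers, the cell type markers, the 15 highest by CPM and 10 by CPM per kb, up to 5 highest and up to 5 trace or undetected genes in each list, any receptor or transporter, the 12 highest and 5 lowest by CV among genes that averaged 10 CPM or more, and genes next to the threshold. A few genes that meet this rule are not reported here. Named after their values were seen were Aldh1a1, Chac1, Cyp26a1, Cyp26b1, Cyp26c1, Gapdh, Lrat, Lyz2, Malat1, the ligands Btc, Egf, Ereg, Hbegf, Nrg1, Tgfa, Rspo3, Wnt11, Wnt2b and Wnt5b, and Cdx2, Dll3, Hoxb3, Hoxb5, Krt20 and Mfng. On simulated counts of 21534 genes with a variation of 8%, 200 genes with at least 10 CPM were raised 2-fold in library 3. They were set apart in the right library in 100% of cases, which says nothing of smaller changes. The estimate of the variation, with the changed genes included, was 9.86%, above the 8% put in.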

Additional observations from a re-analysis of the deposited data

How the results depend on the processing

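The counts of genes on and the levels were recomputed with no TMM factors, with DESeq2 size factors, with TMM over all 6 libraries, with other thresholds and without each library in turn. The number of genes on was within 1.5 times the main count under each of these, and so was the number on in each list with 4 exceptions. The list of other organs had 5 genes on at 0.5 CPM and 1 at 2 CPM in place of 3. The stomach list had 1 at 2 CPM in place of 2, and the endothelial and the neural list had 2 each in place of 4. With TMM over 6 libraries the factors were 1.028, 1.022 and 1.021, so the levels of all genes fell by a similar share. Lgr5 was then at 126.0 CPM and Fgf15 at 565 CPM, lower than the main values by more than 1 SD, as both SDs were small. The median CV was 13.4% with no filter on low counts and 7.21% for genes on, since genes with few reads vary by counting. Among 631 list genes on, leaving out 1 library moved the mean by more than 1.5-fold for 2, Car1 and Lrat, and another scaling for 0. The number of genes on was 12767, 12741 and 12807 without library 1, 2 and 3, and the biological coefficient of variation was 7.66, 8.36 and 6.22%. No paired analysis was possible because no groups are compared. Levels under 0.177 to 0.201 CPM are below what 3 counts give.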

Other observations

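Genes of vitamin A handling were on in 13 of 24 cases in libraries that had received no retinoic acid. That share, 54.2%, stood beside 58.7% of all genes and 64.2% of protein-coding genes. Rdh10, which oxidises retinol, was at 213, 189 and 193 CPM. Isx, the factor that limits carotene uptake, was at 82.6, 83 and 133 CPM, with library 3 above the others. The retinol binding protein Rbp2 was at 13.9, 16.3 and 19.2 CPM, and Adh1 was at 36.1, 53 and 29.2 CPM with library 2 highest. Of the enzymes that make retinoic acid Aldh1a1 was at 5.85, 8.09 and 13.2 CPM and Aldh1a3 was mixed at 0.946, 2.47 and 1.61 CPM. Of those that break it down Cyp26a1 was trace at 0.177, 0.362 and 0 CPM, Cyp26b1 was mixed at 0.414, 1.39 and 0.803 CPM and Cyp26c1 was trace at 0.0591, 0.0603 and 0 CPM. The binding proteins Crabp1 and Crabp2 were trace. Lrat, which stores retinol as ester, was on at 1.95, 4.65 and 1.14 CPM, and its mean is 1.54 CPM without library 2. In this list 1 gene was not among the genes counted and may have had no reads, and no level is given for Aldh1a2.

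Genes that present antigen were on only in the class I arm among the 14 listed. H2-K1 and H2-D1, class I chains, were at 857, 919.96 and 922 and 523, 580.5 and 568 CPM, and B2m, their light chain, was at 265, 252 and 233 CPM. The class II genes Cd74, H2-Eb1 and Ciita were trace and H2-Ab1 was mixed at 0.591, 0.905 and 1.34 CPM. Class I genes are close copies, so the split of reads among them is uncertain. Of 21 genes that interferon switches on 12 were on, 57.1% beside 58.7% of all genes and 64.2% of protein-coding genes. None of them reached 100 CPM in each library. Irf1 had the most reads at 95.2, 100.1 and 86 CPM and Isg15 was at 1.95, 1.45 and 2.07 CPM, while Ifit3, Usp18, Gbp2 and Mx2 were trace. Of 22 immediate early and stress genes 20 were on (90.9%, beside 64.2% of protein-coding genes), and 10 of them reached 100 CPM in each library. Jund, Ddit4 and Junb were at 858, 919 and 999, 793, 837 and 812 and 443, 479 and 424 CPM, and Trib3 and Chac1, targets of the ATF4 pathway, were at 283, 246 and 285 and 223, 215 and 232 CPM.

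A few processed pseudogenes, copies of spliced transcripts that sit elsewhere in the genome, had many reads. Of 386 such genes 149 were on, 38.6% beside 58.7% of all genes, and together they held 1.43 to 1.47% of the reads of a library. Gm9843, on chromosome 16, had the highest CPM per kb of the table at 4529 ± 256, and Gm1840, on chromosome 8, was at 2198, 2518 and 2269 CPM. Gapdh, the gene of a glycolytic enzyme that most cells express strongly, was at 49.5, 46.8 and 44.2 CPM, rank 5342. The 87 genes of ribosomal proteins held 0.572 to 0.590% of reads. How reads that match several places were counted is not given in the sources used here, so levels of genes with many such copies are uncertain.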
